A study of Mus musculus with 40 samples.

Results

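The comparison was between livers of Wt mice given 30 μmol/kg CDDO-Im and livers of Wt mice given vehicle. Its members were the 4 arrays labelled as that dose and the 4 labelled as vehicle, 8 of the 40 arrays of the study, and all 9695 genes measured on them were tested. The Wt mice were male C57BL/6J, 12 weeks old, and were dosed by gavage 3 times over 5 days, with the liver taken 24 hours after the last treatment. Vehicle mice received the Cremophor-EL, DMSO and PBS mixture that carried the compound. 4 Wt mice at 10 μmol/kg and 4 at 3 μmol/kg, 4 Wt mice given 300 μmol/kg of the dithiolethione D3T, and 4 Nrf2-null mice at 30 μmol/kg with their 4 Nrf2-null vehicle mice served for comparison. The Nrf2-null mice lack Nrf2 in every cell and were bred on the C57BL/6J background.

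CDDO-Im is a synthetic oleanane triterpenoid that reacts with cysteines of Keap1. Keap1 normally hands the transcription factor Nrf2 to the proteasome, and when its cysteines are modified Nrf2 persists, enters the nucleus, pairs with small Maf proteins and binds antioxidant response elements near its target genes. In liver its best known targets are enzymes that reduce and conjugate reactive chemicals, enzymes of glutathione and thioredoxin, and pumps that export conjugates. Nfe2l2, the gene of Nrf2, read log2 10.94 to 11.13 in the CDDO-Im 30 Wt mice and 11.07 to 11.73 in the vehicle Wt mice, against 2.78 to 3.09 and 2.72 to 3.01 in the CDDO-Im 30 and vehicle Nrf2-null mice.

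Levels are log2 GCRMA values, differences are CDDO-Im minus vehicle on that scale, and errors of differences are standard errors with 4 mice in each group. As deposited, limma called 2291 of the 9695 genes (23.6%) at an adjusted p under 0.05, 272 higher with CDDO-Im (2.81%) and 2019 lower (20.8%). The shift was broad: the median over all genes was -0.16, and 26.0% of genes had a positive difference. It was uneven by mean level, with medians of -0.07 under log2 6 and -0.21 both at 6 to 8 and 8 to 10. At 10 to 12 the median was -0.13, and at 12 and over -0.08. The median of the probe sets above the expression minimum was 7.50 to 7.65 on the CDDO-Im arrays, below the 7.71 to 7.77 of the vehicle arrays (difference -0.17, exact two-sided permutation p = 0.0286, the smallest that 4 against 4 allow). The median of all probe sets differed the other way, by 0.03 (exact two-sided permutation p = 0.114). With each array centred on its median above the minimum, 1181 genes were called (12.2%), 6.57% of all genes higher and 5.61% (544) lower. The split between higher and lower calls therefore depended on the scaling. At mean levels of log2 12 and over, 51 genes were called higher and 172 lower as deposited. After centring the counts at that level were 132 and 17. All 272 genes called higher as deposited, and 544 of the 2019 called lower, were called in the same direction in both scalings. The description rests on these 816 genes, and wherever a named gene or group was called in only 1 scaling the text says so. Which scaling is nearer to the tissue was not tested.

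**Figure D1:**
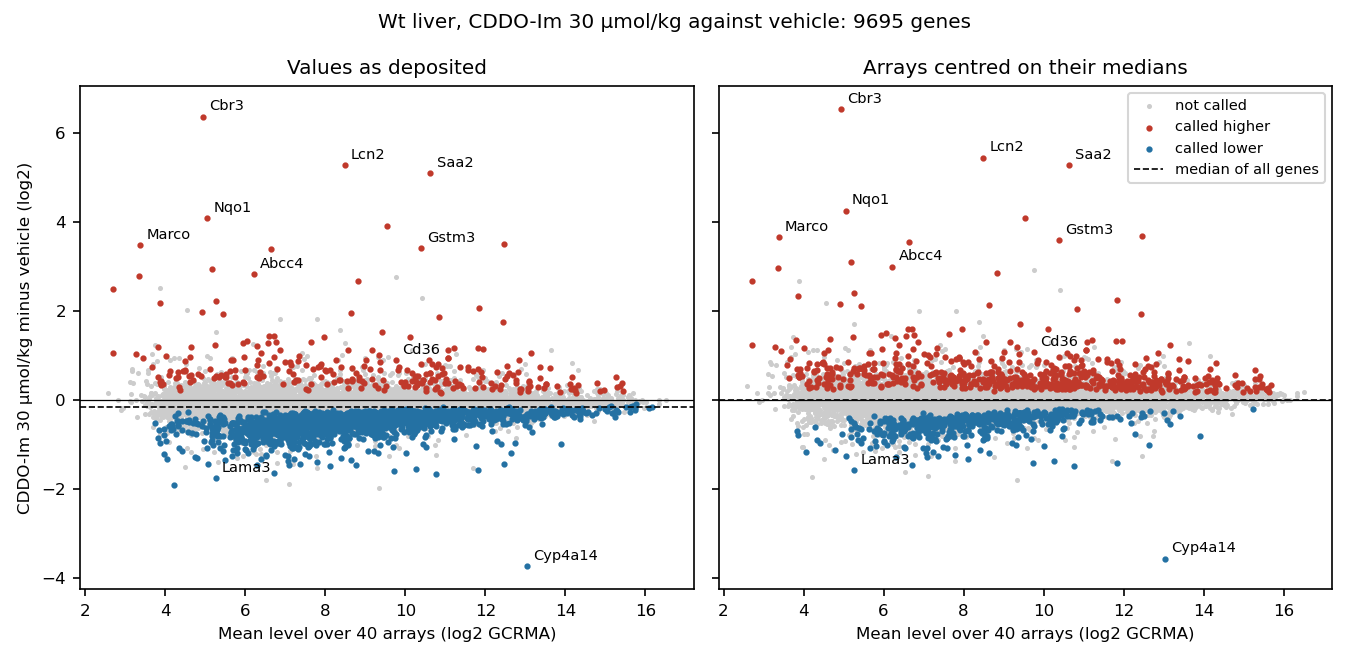
Difference between CDDO-Im 30 μmol/kg and vehicle in Wt liver (log2) against the mean level over the 40 arrays (log2 GCRMA), 1 point per gene, as deposited on the left and with arrays centred on the right. The dashed line is the median of all genes, -0.16 as deposited and 0.01 after centring. Coloured points are genes called higher or lower. The few large rises keep their place in both panels while the band of small falls thins out after centring.

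The falls were mostly small. Among genes called in both scalings, 48 of the 272 higher ones and 57 of the 544 lower ones differed by at least 1 on the log2 scale, and 17 of the higher ones but 1 of the lower ones by at least 2. The mice of the 2 groups did not overlap for 211 of the 272 and for 507 of the 544. Over all genes tested, groups did not overlap in the higher direction for 4.21% and in the lower direction for 24.1%.

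Enzymes that reduce and conjugate foreign chemicals included the gene with the largest rise. Of 31 measured, 17 were called higher in both scalings and 1 lower as deposited, which was not called after centring. Over all genes 2.81% were called higher in both scalings. The list's median difference was 0.57, against -0.16 for all genes. Cbr3, a carbonyl reductase, had levels of 10.79, 10.42, 10.91 and 9.41 in the CDDO-Im mice, against 4.01, 4.00, 4.01 and 4.01 in the vehicle mice. The groups were far apart, with a difference of 6.38 ± 0.41 (SE, adjusted p = 6.4e-13). The 4 vehicle mice lay at the lower end of the scale, as did the Nrf2-null mice with and without CDDO-Im, 12 mice in all at 3.87 to 4.21, so the 83.1-fold that the difference amounts to is not an exact size. Nqo1, a quinone reductase widely used as an Nrf2 marker, had levels of 9.34, 8.68, 9.27 and 7.97 in the CDDO-Im mice, against 4.98, 4.43, 4.69 and 4.79 in the vehicle mice. The lowest treated mouse was well above the highest vehicle mouse, and the difference was 4.09 ± 0.32 (17.1-fold, adjusted p = 7.6e-11).

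Several glutathione S-transferases of the alpha and mu classes, which attach glutathione to electrophiles, rose. Gstm3 read 14.26, 13.81, 14.12 and 13.23 with CDDO-Im, against 10.37, 10.10, 10.72 and 10.56 with vehicle, a difference of 3.42 ± 0.35 (10.7-fold, adjusted p = 6.1e-08). Gsta2 rose by 2.08 ± 0.35 (adjusted p = 0.00011) and Gstm1 by 1.76 ± 0.22 (adjusted p = 2.1e-06), and treated mice were at 14.32 to 14.81 for Gsta2 and at 14.50 to 14.83 for Gstm1. Members of these families are close in sequence. The probe sets used for Gstm3 and Gstm1 are of the kinds that share probes with related transcripts, so a rise cannot be given to 1 member with certainty. The other kept probe set of Gstm3 differed by 5.56 and the other 3 of Gstm1 by 2.96, 2.37 and 2.13, all higher with CDDO-Im. Further rises were those of the carbonyl reductase Cbr1 (1.87), Gstm2 (1.53), Gstm4 (1.42), the reductases Ptgr1 (1.32) and Akr1b8 (1.29), Ugdh, which makes the UDP-glucuronic acid used for glucuronidation (0.90), the epoxide hydrolase Ephx1 (0.60) and the glucuronosyltransferase Ugt2b35 (0.57). Gstm5 (-0.20, adjusted p = 0.45) and Gstm6 (0.18, adjusted p = 0.61) were not called. Ces2b, a carboxylesterase outside the list, was at 6.89, 8.80, 7.04 and 6.63 with CDDO-Im, against 3.55, 5.85, 6.24 and 5.02 with vehicle (difference 2.18 ± 0.50, adjusted p = 0.002).

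The glutathione and thioredoxin list had 7 of 16 measured members called higher and 0 lower, in either scaling. Over all genes 2.81% were called higher as deposited and 6.57% after centring. Srxn1, sulfiredoxin, which repairs oxidized peroxiredoxins, had levels of 10.60, 10.54, 10.87 and 10.08 in the CDDO-Im mice, against 8.48, 8.49, 8.73 and 8.51 in the vehicle mice. The difference was 1.97 ± 0.21 (3.91-fold, adjusted p = 1.7e-07). Blvrb, biliverdin reductase B, rose by 1.17 ± 0.17, Txnrd1, thioredoxin reductase, by 0.81 ± 0.10, and Gsr, glutathione reductase, by 0.60 ± 0.11. Smaller rises of 0.29 to 0.33 were found for thioredoxin itself (Txn1), catalase (Cat) and the lipid hydroperoxidase Gpx4. The other textbook members of this group were not called. Gclc and Gclm, the subunits of the enzyme that limits glutathione synthesis, differed by 0.29 ± 0.21 (adjusted p = 0.32) and 0.00 ± 0.10 (adjusted p = 0.98), and heme oxygenase Hmox1 by 0.59 ± 0.36 (adjusted p = 0.25). Hmox1 levels were 6.03, 6.07, 5.70 and 6.39 in the CDDO-Im mice and 5.16, 5.40, 5.66 and 5.59 in the vehicle mice, with no overlap in spite of the missed call.

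Export pumps followed the same direction, with 4 of 9 measured members called higher and 0 lower, where 2.81% of all genes were called higher in both scalings. Abcc4, which carries organic anions across the sinusoidal membrane into blood, read 8.83, 7.99, 9.18 and 8.22 with CDDO-Im, against 6.06, 5.46, 5.52 and 5.85 with vehicle (difference 2.83 ± 0.30, 7.13-fold, adjusted p = 1.2e-07). Abcc2, the pump of the canalicular membrane, rose by 0.78 ± 0.11, and Abcc1 by 0.99 ± 0.26. The mean of Abcc1 over all arrays was 4.02, near the expression minimum, so its size is less certain. Abcc3 rose by 0.60 ± 0.22 (adjusted p = 0.04), and this call was lost without any single CDDO-Im mouse and without 3 of the 4 vehicle mice (adjusted p up to 0.0921). Abcc12, a transporter gene outside the list, was at 3.51, 4.94, 5.82 and 5.39 in the CDDO-Im mice and at 2.40 to 2.41 in all 4 vehicle mice, too low for an exact size. Of 6 measured suppliers of NADPH, which feeds these reductases, Pgd (0.96 ± 0.20) and transketolase Tkt (0.72 ± 0.17) were called higher. None of the 9 genes of Nrf2's own regulation and partners was called in both scalings. Keap1 differed by 0.07 ± 0.09 and Mafg by -0.04.

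**Figure D2:**
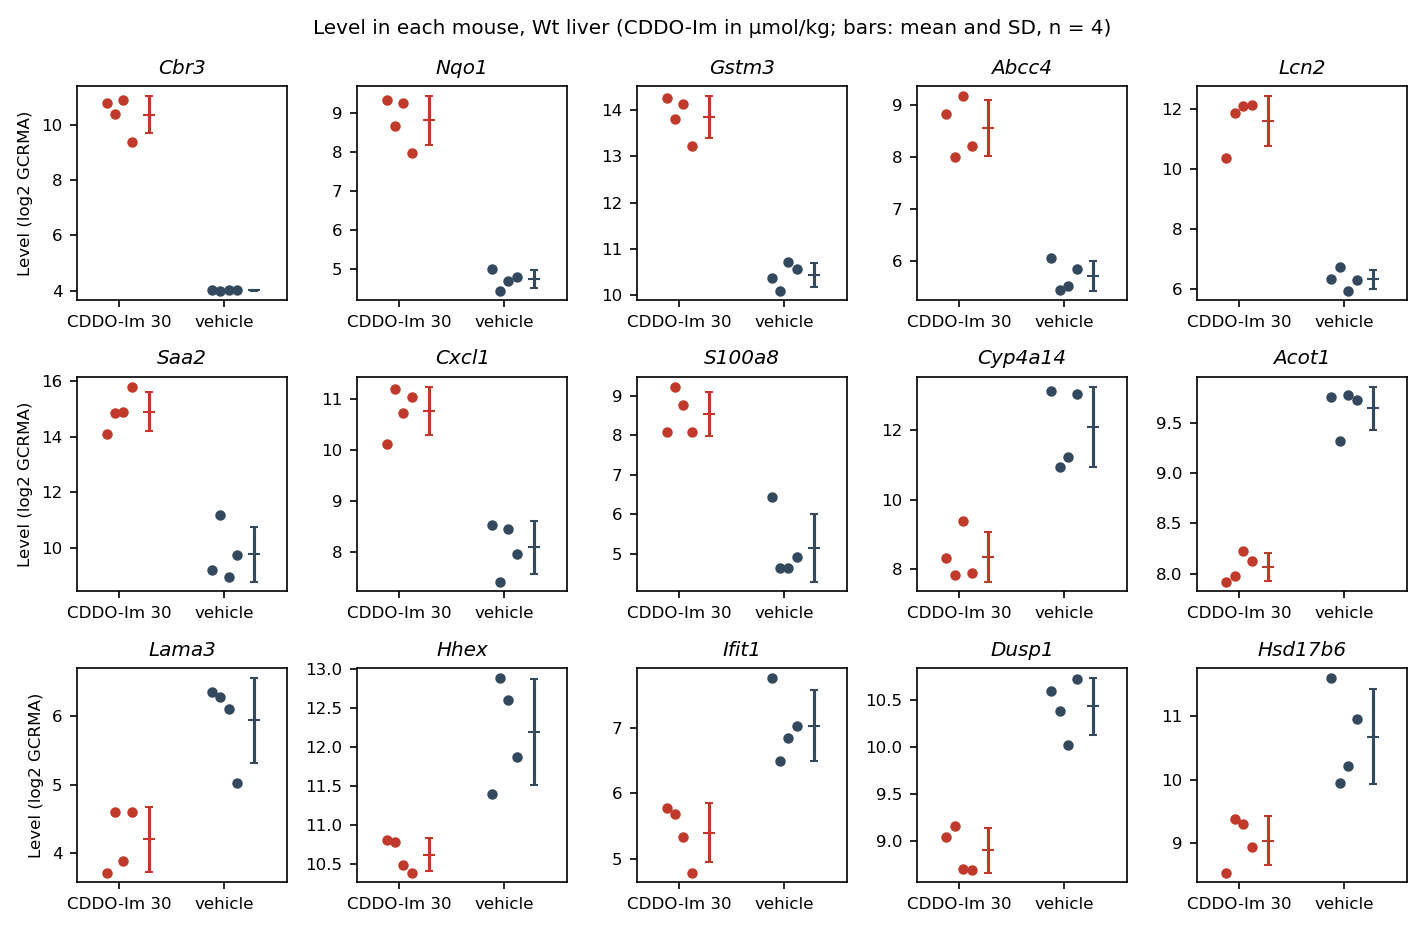
Level of 15 leading genes in each mouse (log2 GCRMA), CDDO-Im 30 μmol/kg in red on the left and vehicle in blue on the right of each panel, with mean and SD of 4 mice. The groups do not overlap in any panel, and Cbr3 and Lcn2 have the widest gaps.

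The promoters of these genes are shown because Nrf2 with a small Maf recognises the core TGACNNNGC, searched on both strands in windows of 300 bases around the start site from RefSeq (GRCm38.p6). The core was in 6 of the 26 called detoxification genes with a window (23.1%), in 20.4% of the 211 windowed genes called higher in both scalings, in 15.8% of the 449 called lower and in 17.1% of the 7950 windowed genes tested. The share in the genes that rose was near that of all genes, and a match is only a run of letters. Of the 6, these 4 stand for an export pump, the sulfiredoxin, the UDP-glucuronic acid enzyme, which holds the core at 2 places, and the canalicular pump. Capitals mark the core in either orientation, and the sequences run 5′ to 3′ along the strand of the gene.
Abcc4, chr14:118706170-118706469, minus strand: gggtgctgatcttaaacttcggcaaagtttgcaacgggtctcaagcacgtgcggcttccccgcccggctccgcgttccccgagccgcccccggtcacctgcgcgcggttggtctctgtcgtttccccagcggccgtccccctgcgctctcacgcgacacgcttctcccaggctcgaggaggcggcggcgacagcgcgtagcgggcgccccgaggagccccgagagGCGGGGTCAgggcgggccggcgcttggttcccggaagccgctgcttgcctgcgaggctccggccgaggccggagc
Srxn1, chr2:152105274-152105573, plus strand: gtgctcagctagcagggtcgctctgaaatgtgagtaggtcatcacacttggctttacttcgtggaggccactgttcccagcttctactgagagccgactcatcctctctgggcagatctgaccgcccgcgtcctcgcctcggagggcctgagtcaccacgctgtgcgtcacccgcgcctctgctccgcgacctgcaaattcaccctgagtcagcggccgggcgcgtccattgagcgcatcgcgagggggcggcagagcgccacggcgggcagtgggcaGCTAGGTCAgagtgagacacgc
Ugdh, chr5:65435793-65436092, minus strand: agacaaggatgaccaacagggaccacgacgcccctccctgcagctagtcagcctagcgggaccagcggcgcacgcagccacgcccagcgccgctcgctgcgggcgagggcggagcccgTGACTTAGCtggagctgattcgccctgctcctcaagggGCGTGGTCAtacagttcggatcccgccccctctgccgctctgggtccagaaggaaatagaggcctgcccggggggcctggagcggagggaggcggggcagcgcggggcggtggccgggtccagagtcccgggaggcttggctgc
Abcc2, chr19:43782058-43782357, plus strand: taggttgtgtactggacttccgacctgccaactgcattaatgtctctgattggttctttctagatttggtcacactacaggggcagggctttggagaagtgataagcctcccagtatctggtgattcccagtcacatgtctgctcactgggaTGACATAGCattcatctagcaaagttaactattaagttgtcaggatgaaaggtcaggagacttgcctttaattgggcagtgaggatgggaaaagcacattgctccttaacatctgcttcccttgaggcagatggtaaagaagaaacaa
The core began 25 bases before the annotated start of Abcc4 and 98 before that of Abcc2, and in Ugdh 132 and 94 before it. In Srxn1 it began 28 bases after the start. Abcc4 and Srxn1, with the larger rises (2.83 and 1.97), hold 1 core each.

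Genes of the acute phase, whose proteins the liver secretes in inflammation, formed the other group of large rises. Of 20 measured, 6 were called higher in both scalings and 0 lower, where 2.81% of all genes were called higher and 5.61% lower. The median of the list was 0.22, against -0.16 for all genes. Lcn2, lipocalin 2, which binds bacterial siderophores, had levels of 10.38, 11.86, 12.09 and 12.13 in the CDDO-Im mice, against 6.34, 6.74, 5.96 and 6.31 in the vehicle mice (difference 5.28 ± 1.35, 38.8-fold, adjusted p = 0.0051). Serum amyloid Saa2 read 14.09, 14.83, 14.87 and 15.79 with CDDO-Im, against 9.20, 11.18, 8.98 and 9.77 with vehicle (difference 5.11 ± 1.22, 34.6-fold, adjusted p = 0.0031). The orosomucoid Orm2 read 11.27, 12.31, 12.20 and 12.39 with CDDO-Im, against 8.41, 7.93, 8.07 and 8.07 with vehicle (difference 3.92 ± 0.98, 15.2-fold, adjusted p = 0.0045). In each of these genes all treated mice were above all vehicle mice, and the standard errors were larger than that of Nqo1. Saa1 rose by 3.52 ± 0.97 and Orm3 by 2.24 ± 0.78, though relatives of these families share probe sequence and are not fully separated on the array. Orm3 (adjusted p = 0.036) was not called without CDDO-Im mouse 2, 3 or 4 or without vehicle mouse 2, 3 or 4. The abundant members moved little: Orm1 rose by 0.52 and haptoglobin Hp by 0.30.

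A few genes of white blood cells were also called higher. S100a8, a calcium-binding protein abundant in neutrophils, had levels of 8.08, 9.23, 8.78 and 8.09 in the CDDO-Im mice, against 6.43, 4.63, 4.65 and 4.91 in the vehicle mice (difference 3.39 ± 0.76, 10.5-fold, adjusted p = 0.0018). Its partner S100a9 rose by 2.94 ± 0.71, from a vehicle mean under log2 4, so that size is inexact. Cxcl1, a chemokine that draws neutrophils, read 10.12, 11.20, 10.73 and 11.04 with CDDO-Im, against 8.54, 7.42, 8.45 and 7.96 with vehicle (difference 2.68 ± 0.86, adjusted p = 0.022). That call was lost without CDDO-Im mouse 2 or 4 or vehicle mouse 2 (adjusted p up to 0.0644). Marco, a scavenger receptor of macrophages, was at 5.55, 5.53, 6.75 and 6.24 in the CDDO-Im mice and at 3.25, 2.27, 2.31 and 2.27 in the vehicle mice (difference 3.49 ± 0.54, adjusted p = 4.7e-05), with the vehicle level too low for an exact size. Only S100a8 and S100a9, 2 of the 6 neutrophil markers listed, were measured, and their summed level was 8.34 to 9.68 with CDDO-Im and 5.01 to 6.93 with vehicle. Of the defining markers, Elane and Mpo stayed below the expression minimum in every group, and no probe set was named for Ly6g or Retnlg. Marco was the 1 of 12 Kupffer cell markers that was called, while Clec4f differed by 0.14 and Adgre1 by -0.01, and the summed level of the list was 13.9 to 14.3 with CDDO-Im and 13.6 to 14.3 with vehicle. The 2 measured lymphocyte markers, Cd79b (-0.44) and Gzma (0.41), were not called. Whether more cells of a type or more RNA per cell lay behind such a change cannot be told apart in whole liver, and the part of neutrophils in the acute phase rise was not tested.

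Levels at the lower doses differed from gene to gene. In the order vehicle, 3, 10 and 30 μmol/kg, mean Nqo1 was 4.72, 5.93, 7.03 and 8.81, a step at every dose. Mean Cbr3 was 4.01, 4.52, 5.27 and 10.38 in the same order, and at 30 it was 5.12 ± 0.41 above the level at 10 (adjusted p = 3.4e-10). Lcn2 had no such order, with means of 6.34, 11.04, 9.86 and 11.61, and the difference between 30 and 10 was 1.75 (adjusted p = 0.4). Between these doses 0 of 20 acute phase genes were called as deposited, and 3 were higher and 0 lower at 30 after centring. Both measured neutrophil markers, S100a8 (3.51, adjusted p = 0.0015) and S100a9 (2.59, adjusted p = 0.01), were higher at 30. The median of these 2 markers against vehicle had no order by dose either. It was 2.83 at 3 μmol/kg, with 0 called, 0.12 at 10 and 3.16 at 30. Over all genes, 1888 (19.5%) differed between 30 and 10, 509 higher (5.25%) and 1379 lower (14.2%) at 30. After centring the split was 1013 higher and 731 lower, of 1744. Between these doses 7 of 16 members of the glutathione and thioredoxin list were higher at 30 and 0 lower, and 3 of 9 exporters. Of the conjugation and reduction enzymes, 4 of 31 were higher at 30 and 1 lower, while Gsta2 (0.75, adjusted p = 0.13) was not called. Gstm3 (0.87 ± 0.35, adjusted p = 0.072) and Gstm1 (0.60 ± 0.22, adjusted p = 0.053) were called only after centring, at adjusted p = 0.04 and 0.024. Abcc2 was called at either dose against vehicle, by 0.87 at 10 and 0.78 at 30, with a difference of -0.10 (adjusted p = 0.6) between them.

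Each mouse's label closes with a number, and those of the CDDO-Im 30 mice follow on directly from those of the D3T mice, while those of the vehicle mice and of the 10 μmol/kg mice lie in another range. What the numbers stand for is not stated, so they and the treatment cannot be told apart in the comparisons with vehicle and with 10. Against D3T, whose numbers adjoin, Cbr3 was higher by 5.11 (adjusted p = 2.3e-10), Srxn1 by 1.99, Abcc4 by 1.72, Nqo1 by 1.55 and S100a8 by 2.98, and Cyp4a14 was lower by 5.86. Lcn2 (1.46, adjusted p = 0.44) and Orm2 (2.02, adjusted p = 0.12) were not separated from D3T. Of all 20 acute phase genes, 5 were called higher than with D3T and 0 lower in both scalings. Over all 9695 genes 431 were called higher than with D3T in both.

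**Figure D3:**
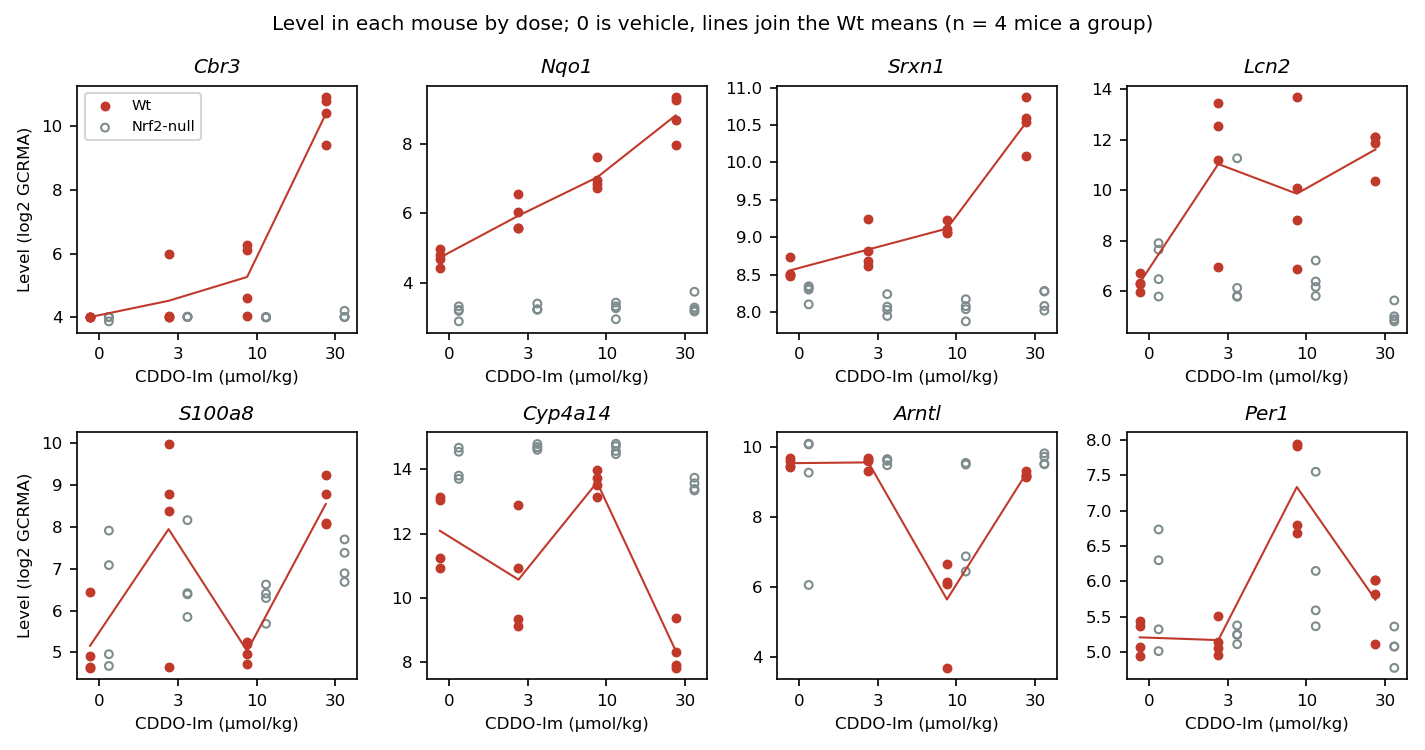
Level of 8 genes in each mouse (log2 GCRMA) against dose of CDDO-Im (μmol/kg, 0 is vehicle, doses evenly spaced), filled points Wt with a line through the means and open points Nrf2-null, 4 mice a group. Cbr3 and Srxn1 rise mainly between 10 and 30, Lcn2 and S100a8 scatter at the lower doses, and the clock genes Arntl and Per1 depart from vehicle at 10 but not at 30.

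The largest fall was that of Cyp4a14, a cytochrome that ω-hydroxylates fatty acids and is induced by the nuclear receptor PPARα. It read 8.32, 7.82, 9.38 and 7.90 in the CDDO-Im mice, against 13.13, 10.94, 11.23 and 13.04 in the vehicle mice. The difference was -3.73 ± 0.50 (13.3-fold lower, adjusted p = 7e-06). At 10 μmol/kg the gene was above vehicle by 1.51 (adjusted p = 0.035), so its level at 30 lay 5.24 below that at 10. Cyp4a31 of the same family fell by 1.46 ± 0.38, and the acyl-CoA thioesterase Acot1 by 1.58 ± 0.36, with treated mice at 7.92, 7.98, 8.23 and 8.13 and vehicle mice at 9.76, 9.32, 9.78 and 9.73. Of 15 measured PPARα-inducible genes, 2 were called lower and 1 higher in both scalings. Over all genes 5.61% were called lower and 2.81% higher in both. Differences within the list were negative for 11 as deposited and for 8 after centring, where 26.0% of all genes had a positive difference as deposited. The mice did not overlap for 5, all lower, and 24.1% of all genes lay lower without overlap. The riser was the fatty acid transporter Cd36 (0.91 ± 0.23, adjusted p = 0.004), whose groups overlapped. Pdk4, which restrains pyruvate oxidation, differed by -0.13 (adjusted p = 0.91), Plin2, which coats lipid droplets, by -0.31 (adjusted p = 0.18), Acot3 by -1.16 (adjusted p = 0.2), and the list's median was -0.20.

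The median of fatty acid oxidation enzymes was -0.20 as deposited and -0.02 after centring, against -0.16 and 0.01 for all genes. Of 24 measured, 6 were called lower and 1 higher as deposited, and 1 lower and 1 higher in both scalings. Over all genes 20.8% were called lower and 2.81% higher as deposited, and 5.61% and 2.81% in both. The mice did not overlap for 12 lower and 2 higher members. Over all genes 24.1% lay lower and 4.21% higher without overlap. Decr1, which reduces double bonds of unsaturated acyl-CoAs, fell by 0.61 ± 0.14 (adjusted p = 0.0016), and Hsd17b4 of the peroxisome rose by 0.32 ± 0.09. The falls of Cpt2 (-0.41), Acadvl (-0.33), Acadl (-0.30), Echs1 (-0.33) and Etfb (-0.36) were not called after centring. Genes of cholesterol synthesis gave 0 calls of 17 in either scaling, with a median of 0.03. Cyp51 differed by 0.43 ± 0.36 (adjusted p = 0.42) and Lss by 0.43 ± 0.36 (adjusted p = 0.41). Of 20 genes of fatty acid and triglyceride synthesis, Dgat2, which completes triglyceride synthesis, was the 1 called (-0.34), as deposited only.

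Other large falls came from genes of unlike function. Lama3, a laminin chain, read 3.71, 4.60, 3.87 and 4.60 with CDDO-Im, against 6.37, 6.28, 6.11 and 5.02 with vehicle (difference -1.75 ± 0.49, adjusted p = 0.0092). Hhex, a homeobox transcription factor of liver development, read 10.81, 10.79, 10.48 and 10.39 with CDDO-Im, against 11.40, 12.89, 12.60 and 11.87 with vehicle (difference -1.57 ± 0.31, adjusted p = 0.00067). Hsd17b6, a hydroxysteroid dehydrogenase, read 8.53, 9.37, 9.29 and 8.94 with CDDO-Im, against 11.61, 9.94, 10.21 and 10.96 with vehicle (difference -1.65 ± 0.42, adjusted p = 0.0055). No treated mouse reached the lowest vehicle mouse in any of these genes, though the gap was narrow for Lama3 and Hsd17b6. Dusp1, a phosphatase that inactivates MAP kinases, fell by 1.53 ± 0.43, with treated mice at 8.69 to 9.16 and vehicle mice at 10.03 to 10.72. Dhps, which makes the hypusine residue of the translation factor eIF5A, fell by 1.43 ± 0.19 (adjusted p = 3.9e-06) on 1 probe set and by 0.45 on the other. Stox2 fell by 1.44 on the probe set used, while its other kept probe set differed by 0.25. Chic1 fell by 1.40 on each of its 2 probe sets. Among genes with a group mean under log2 4, where sizes are inexact, Pls1, an actin-bundling plastin, was higher, and Lrit2, Triobp, Zfp647 and Tfpt were lower.

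Of 13 interferon-induced genes, 2 were called lower and 1 higher in both scalings, where 5.61% of all genes were called lower and 2.81% higher. Their median was -0.47 as deposited and -0.30 after centring, against -0.16 and 0.01 for all genes, and 11 differences were negative as deposited and 8 after centring. Ifit1, which binds foreign RNA, read 5.78, 5.68, 5.34 and 4.79 with CDDO-Im, against 7.77, 6.49, 6.85 and 7.03 with vehicle (difference -1.63 ± 0.38, adjusted p = 0.0024). Usp18, which removes the modifier ISG15 from proteins, fell by 1.48 ± 0.36. Ifit2 (-1.32, adjusted p = 0.019) was not called after centring (adjusted p = 0.065). Ly6e rose by 0.73 ± 0.22, and Stat2, Oas1a and B2m differed by -0.10, -0.16 and 0.02 with no call.

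For the gene products that cells make in bulk, the call turned on the scaling. Of 69 measured subunits of the respiratory chain, 49 were called lower and 0 higher as deposited, and the mice did not overlap for 55, all lower. Over all genes 20.8% were called lower and 24.1% lay lower without overlap. After centring, 4 were called lower and 2 higher. The list's median was -0.27 as deposited and -0.10 after centring, against -0.16 and 0.01 for all genes. The 4 called in both scalings were Ndufa9 of complex I (-0.42 ± 0.05, adjusted p = 3e-06), Uqcrb of complex III (-0.38 ± 0.05), the ATP synthase subunit Atp5l (-0.41 ± 0.07) and Cox7c of complex IV (-1.25 ± 0.23), the last from a level near the expression minimum. Of 32 cytosolic ribosomal proteins 2 were called higher and 4 lower as deposited, and 8 higher and 0 lower after centring. Of 38 splicing and RNA-binding proteins 10 were called lower as deposited, a share near the 20.8% of all genes, of which only Hnrnpl (-0.66 ± 0.10) was also called after centring. Apolipoproteins had 5 of 17 lower as deposited and 3 higher after centring, and the differences of Apoa1, Apoa2 and Apoc1 changed sign, at -0.15, -0.17 and -0.15 as deposited and 0.02, 0.01 and 0.02 after centring.

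**Figure D4:**
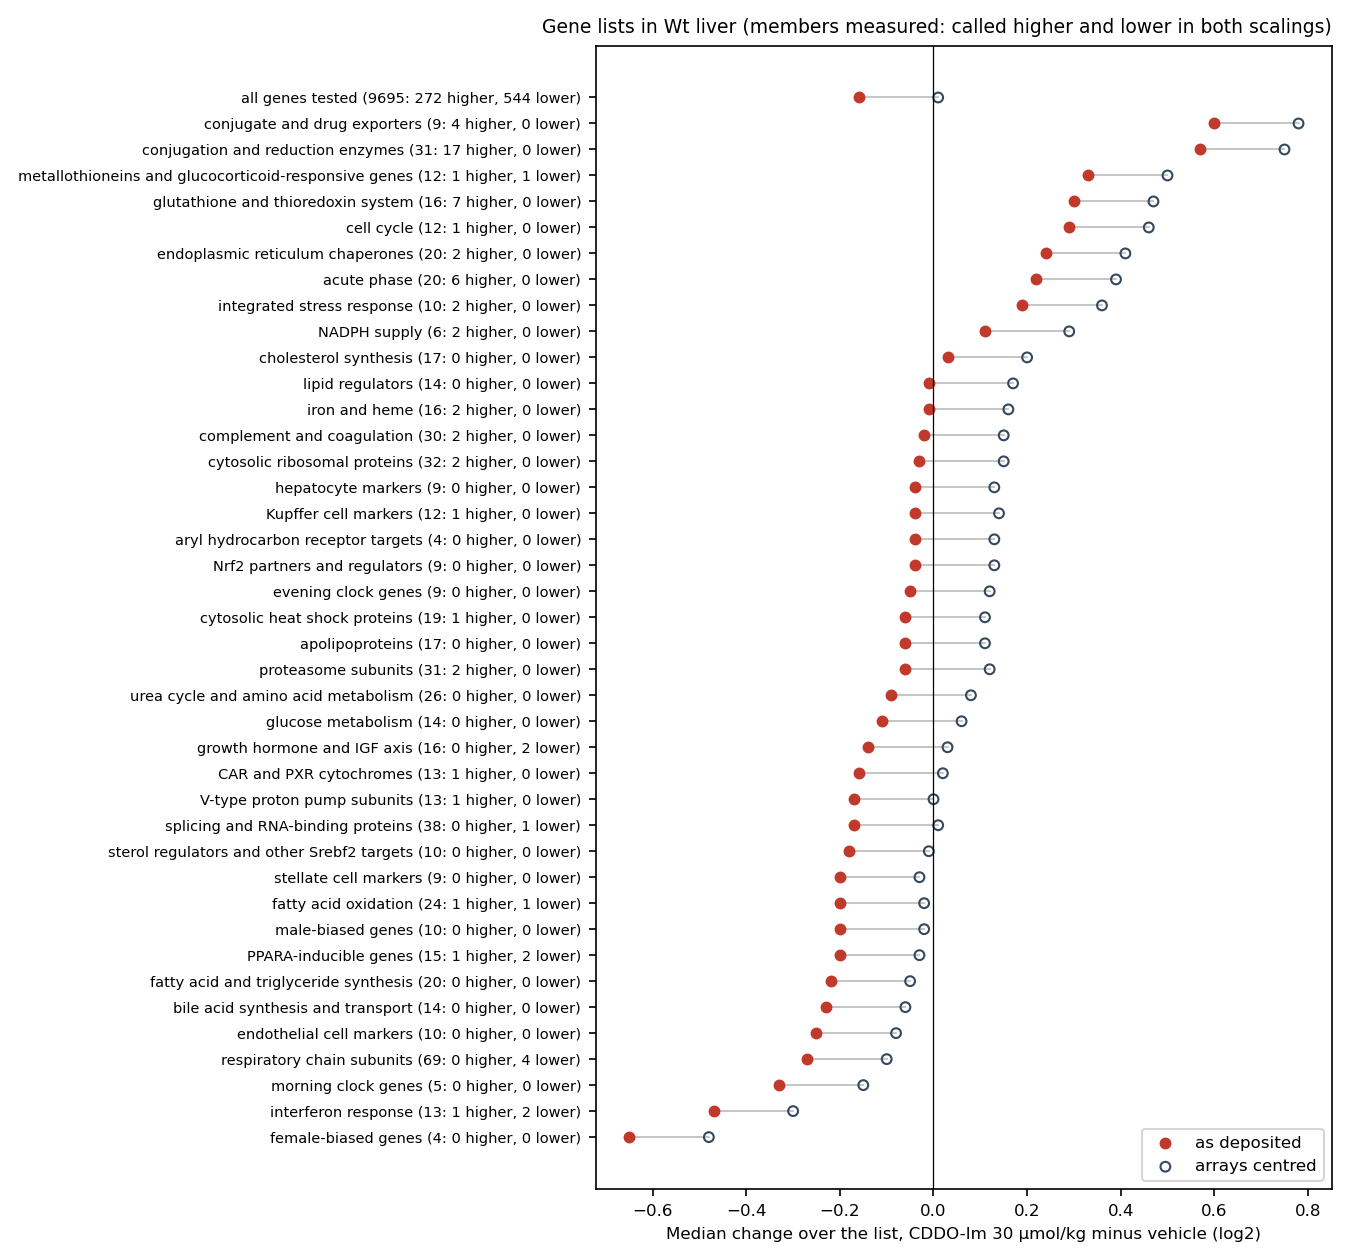
Median difference between CDDO-Im 30 μmol/kg and vehicle (log2) over the measured members of each list of at least 4, as deposited (filled) and with arrays centred (open), with the number of members measured and called higher and lower in both scalings beside each name. Exporters (0.60) and conjugation enzymes (0.57) stand farthest to the right of the all-gene median (-0.16), and most other lists move across 0 or near it when arrays are centred.

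More chaperones were called against the dose below than against vehicle. Of 20 chaperones and folding enzymes of the endoplasmic reticulum, Pdia4 (0.60 ± 0.19) and P4hb (0.24 ± 0.09) were called higher than vehicle, and 12 were called higher at 30 than at 10, with a median of 0.72 between the doses. Against vehicle, Pdia4 lost its call without CDDO-Im mouse 2 or 3 or vehicle mouse 1, and P4hb in 9 of 18 alternatives, among them those without CDDO-Im mouse 2, 3 or 4 or vehicle mouse 1 or 4. Over all genes 5.25% were called higher at 30 than at 10. Creld2, a stress-induced secretory chaperone, read 11.51, 12.55, 12.88 and 11.46 at 30, 9.17, 9.49, 9.79 and 9.34 at 10, and 9.62, 11.20, 12.30 and 10.77 with vehicle. The mice at 30 lay apart from those at 10 (2.66, adjusted p = 0.00076) but overlapped the vehicle mice (1.13, adjusted p = 0.12). Cytosolic heat shock proteins showed the same, with 1 of 19 called higher than vehicle, Hspa8 (0.53 ± 0.19, adjusted p = 0.041), and 8 higher than at 10. The mice at 10 were themselves below vehicle in both lists. There 6 of the 20 endoplasmic reticulum genes (median -0.43) and 9 of the 19 heat shock genes (median -0.79) were called lower than vehicle. Over all 9695 genes 1207 were called lower at 10. Other kept probe sets of Hspa8 ran both ways (0.68, 0.39 and -1.79), and it lost its call against vehicle without CDDO-Im mouse 1, 2 or 4 or without vehicle mouse 1 or 2. The stress genes Ddit4, an inhibitor of mTORC1, and Sesn2 rose by 1.43 ± 0.39 and 0.56 ± 0.15, while Atf4, Atf3 and Chac1 were not called and Ddit3 was lower as deposited only (-0.59).

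Clock genes showed a like pattern. At 30 μmol/kg 0 of 9 evening clock genes and 0 of 5 morning clock genes were called against vehicle, with medians of -0.05 and -0.33. Against 10 μmol/kg, 8 of the 9 evening genes were lower and all 5 morning genes higher at 30, in both scalings. Arntl, which encodes the clock activator BMAL1, read 9.17, 9.19, 9.32 and 9.15 at 30, 6.10, 6.15, 6.65 and 3.70 at 10, and 9.68, 9.44, 9.59 and 9.42 with vehicle. Dbp, an output of the clock, read 4.57, 5.07, 4.56 and 4.91 at 30, 11.60, 11.87, 10.94 and 12.55 at 10, and 5.08, 5.18, 4.56 and 4.83 with vehicle. The mice at 10 stood apart, while those at 30 were just under the vehicle mice for Arntl (-0.33, adjusted p = 0.75) and among them for Dbp (-0.13, adjusted p = 0.96). The hour at which each group was killed is not given in the sources used here. Of the genes that stood out at 10, these 5 had no call at 30. Usp2, a target of the clock, differed from vehicle by 0.01, and Trib3 and Pfkfb3 by 0.49 and 0.54. The lipid regulators Lpin1 and Ppargc1b differed by 0.80 (adjusted p = 0.23) and -0.53 (adjusted p = 0.31). All 5 were called lower at 30 than at 10, with differences of -1.69 to -3.68. Other genes of the study's dose table were called higher than vehicle at 30, as deposited, on the probe sets it lists. These were Syncrip (1.21), Clip1 (1.11), Chd2 (1.05), Prrc2c (1.01), Krit1 (0.94), Nabp1 (0.93) and Tob2 (0.82). Except for Tob2, the probe sets used here for these genes were others and had no call. The Tob2 call held in 8 of 18 alternatives, and its other kept probe sets had no call (-0.17, 0.29 and -0.10). Further kept probe sets of Syncrip were called both ways (1.41 and -0.64). Upp2 was called lower (-1.04), as deposited only.

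The response was compared with that of Nrf2-null mice by the difference of the 2 responses, each against its own vehicle. In Nrf2-null liver 17 genes were called at 30 μmol/kg (0.175%), with 976 at an unadjusted p under 0.05, and the count was 8 without treated mouse 4 and 58 without vehicle mouse 4. The difference of responses passed for 1154 genes (11.9%), 173 higher in Wt (1.78%) and 981 lower (10.1%), and after centring for 617, of which 319 were higher and 298 lower. The response of Cbr3 differed by 6.29 (adjusted p = 1.5e-08), and Nrf2-null mice read 4.01, 4.02, 4.00 and 4.21 with CDDO-Im and 3.87, 4.01, 4.01 and 4.00 with vehicle. Nqo1 read 3.22, 3.74, 3.17 and 3.28 in treated and 3.22, 3.32, 2.88 and 3.18 in vehicle Nrf2-null mice, and its response differed by 3.89 (adjusted p = 1.6e-06). Conjugation and reduction enzymes had 10 of 31 members with a larger response in Wt and 0 with a smaller, the glutathione and thioredoxin list 5 of 16, exporters 2 of 9, and acute phase genes 4 of 20, of which Saa1 was not called after centring.

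Of the 20 acute phase genes, 4 had a higher response in Wt and 0 a lower one, 3 of the 4 also after centring. Over all genes 1.78% had a higher response in Wt as deposited. Lcn2 read 4.89, 5.64, 4.81 and 5.01 in treated Nrf2-null mice, against 7.91, 7.65, 6.48 and 5.79 in vehicle Nrf2-null mice, and its responses differed by 7.15 (adjusted p = 0.015). The difference for Saa1 was 4.20 (adjusted p = 0.042, and 0.051 after centring). S100a8 was not separated between genotypes (2.38, adjusted p = 0.14). It read 7.38, 7.70, 6.89 and 6.68 in treated Nrf2-null mice and 4.67, 7.91, 4.96 and 7.08 in vehicle Nrf2-null mice. Cyp4a14 also differed (-3.06, adjusted p = 0.0059), with 13.39, 13.56, 13.74 and 13.34 in treated and 14.67, 13.70, 14.54 and 13.80 in vehicle Nrf2-null mice, whereas Acot1 (-0.99, adjusted p = 0.2) and Cyp4a31 (-0.10, adjusted p = 0.92) did not pass. Among respiratory chain subunits 31 of 69 had a lower response in Wt as deposited and 0 after centring, when 1 was higher. The array medians of the Nrf2-null groups differed by -0.013 (exact two-sided permutation p = 0.686).

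Markers of the liver's cells were checked over whole lists. Of 9 measured hepatocyte markers 2 were called lower as deposited and 0 after centring. Their summed level was 18.35 to 18.42 with CDDO-Im and 18.45 to 18.48 with vehicle. Endothelial markers summed to 12.5 to 12.7 with CDDO-Im and 12.8 to 13.1 with vehicle, with 2 of 10 lower as deposited and 0 after centring. Both shares called were near the 20.8% of all genes called lower as deposited. Differences were negative for 9 of the 10 endothelial markers as deposited and for 8 after centring. For the 9 hepatocyte markers the numbers were 6 and 2. The mice did not overlap for 5 endothelial and 3 hepatocyte markers, all lower. Over all genes 26.0% of differences were positive as deposited and 52.3% after centring, and 24.1% lay lower without overlap. The 3 measured markers of exocrine pancreas summed to 8.80 to 9.10 with CDDO-Im and 9.80 to 10.1 with vehicle, with 0 called. Stellate cell markers summed to 13.56 to 13.75 with CDDO-Im and 13.74 to 13.96 with vehicle, with 0 of 9 called. The 2 measured markers of each of 3 further types held no call. They summed to 6.205 to 8.27 (CDDO-Im) and 6.05 to 6.95 (vehicle) for bile duct, 4.60 to 5.27 (CDDO-Im) and 4.46 to 6.56 (vehicle) for lymphocytes, and 9.18 to 9.63 (CDDO-Im) and 9.30 to 10.3 (vehicle) for red blood cells. Afp, a fetal liver gene, rose by 1.28 ± 0.34 (adjusted p = 0.0061), at 6.10, 6.29, 6.65 and 5.23 with CDDO-Im and 5.06, 4.16, 4.93 and 4.98 with vehicle. Igfals, which carries IGF1 in blood, fell by 0.75 ± 0.18, and Jak2, the kinase of the growth hormone receptor, by 0.47 ± 0.10, the 2 of 16 genes of that axis called in both scalings. Jak2's other kept probe set differed by 0.06.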

How the data were processed

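Liver RNA of individual mice was measured on Affymetrix mouse arrays, 1 per mouse. The authors deposited log2 values of 45037 probe sets computed with GCRMA. The sources used here name neither its version nor the set of arrays processed in one run, and the authors' later present calls and fold filter are not in these values. Depth has no meaning for arrays, so precision rests on 4 mice a group, taken from the labels. Symbols came from the platform annotation, checked by gene identifier against GRCm38.p6. Of the probe sets 34945 had 1 symbol, 932 several and 9160 none listed, and 34741 matched. A probe set was kept where any group had 3 or more arrays reaching log2 4 (18935, 16472 of them with 1 symbol), and a gene was its kept probe set of highest mean, which gave 9695 genes. Kept probe sets were called in opposite directions for 52 genes. One limma 3.58.1 fit in R 4.3.3 over the 10 groups, with trended and robust variances, gave differences with SE and Benjamini-Hochberg adjusted p over all genes. The fit was tested on simulated data.

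Beside the main setting, arrays were centred, quantile normalized again, tested with other minimums, probe set rules and variance models, array weights, a replicate block, the study's exact Wilcoxon rule with a 1.5-fold minimum, and without each mouse. Named genes were the 12 largest rises and falls called in both scalings with groups that do not overlap, 4 of each with a group mean under log2 4, 2 to 4 members of each of 47 lists (other list members are given as values), and genes the study names. Members and lists were chosen with earlier results of these data known. Adipocyte markers had 0 measured members. Exact permutation tests and plots used Python 3.11.15, SciPy 1.17.1 and Matplotlib 3.10.9. Where nothing says that mice were handled independently, p-values measure only the spread between these mice.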

Additional observations from a re-analysis of the deposited data

Results flagged for a closer look

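Among 120 pairs of a named gene and a Wt group, 12 values (10%) lay far from the other 3 mice of their group, where chance gives about 1 in 20. In the CDDO-Im 30 group, mouse 1 was lowest for Lcn2 (10.4) and Orm2 (11.3), mouse 2 was lowest for the cholesterol gene Lss (9.63), and mouse 3 was highest for Chd2 (8.46) and Krit1 (8.49), genes whose other probe sets disagree. In the vehicle group, mouse 1 was highest for S100a8 (6.43), Marco (3.25) and Cyp4a31 (7.19), mouse 2 was lowest for Acot1 (9.32), mouse 3 was lowest for Lss (9.04), and mouse 4 was lowest for Chic1 (7.37) and Zfp647 (4.64).

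The response to 30 μmol/kg differed between Wt and Nrf2-null mice for 24 named genes, by the test of the difference itself, and for 21 of them also with arrays centred. Values are the response in Wt minus that in Nrf2-null mice. Acute phase and inflammatory genes gave 7.15 for Lcn2, 5.97 for Saa2, 4.34 for Orm2, 4.20 for Saa1 and 3.20 for Marco. Detoxification genes and transporters gave 6.29 for Cbr3, 4.19 for Gstm3, 3.89 for Nqo1, 2.91 for Abcc4, 2.50 for Abcc12, 2.15 for Gstm1, 1.95 for Cbr1 and 1.59 for Gsta2. Further positive differences were 2.93 for Pls1, 1.77 for Tob2 and 1.33 for Ppara. In Wt mice alone Tob2 differed from vehicle by 0.82 and Ppara by 0.43, and Ppara was not called there as deposited. Both values are smaller than the genotype differences, so the response of these genes in Nrf2-null mice was negative. Negative differences were -3.06 for Cyp4a14, -2.52 for Lama3, -1.75 for Hhex, -1.65 for Stox2, -1.65 for Dhps, -1.49 for Chic1, -1.43 for Triobp and -0.98 for Zfp647.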

How the results depend on the processing

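Shares are of the genes tested. Against vehicle in Wt mice, the 23.6% called became 12.2% with arrays centred, 12.6% with quantile normalization again (432 higher, 793 lower) and 6.19% with the exact Wilcoxon test and a 1.5-fold minimum (132 higher, 468 lower), 11.5% with no expression minimum, where more genes were tested, 33.5% with array weights, and 17.4% to 24.3% without single mice. The 8.42% called in both scalings, an outcome chosen after seeing the data, became 11.3% with no expression minimum, where centring used the median of all probe sets, 14.4% with array weights, and 5.51% to 7.51% without single mice, the lowest without vehicle mouse 2. The 19.5% between 30 and 10 μmol/kg became 7.68% with the Wilcoxon rule, 9.36% with no expression minimum, 28.6% with array weights and 13.8% to 20.2% without single mice. The 11.9% with a genotype difference became 6.36% with centring, 7.04% with quantile normalization (229 higher, 454 lower), 4.53% with no expression minimum, 1616 of 9695 genes with array weights and 8.22% to 13.4% without single mice. The 0.175% in Nrf2-null mice became 0.351% with centring, 0.382% with quantile normalization, 0.33% with the median of probe sets, 0.371% with array weights and 0.66% with the Wilcoxon rule, and 0% in a limma fit of the compared groups only, in which 6.11% of genes had an unadjusted p under 0.05. Without single Nrf2-null mice it was 0.0825% to 0.598%, moving by over 1.5 times without treated mouse 3 or 4 or vehicle mouse 1, 2 or 4. CDDO-Im and vehicle mice with the same replicate number correlated at -0.163, 0.0993, -0.137 and 0.0411 in Wt. In Nrf2-null mice the values were -0.0194, 0.0385, 0.183 and 0.174. Only for Wt mouse 4 was the value above the highest with another number. So few values cannot show whether same-numbered mice were handled together. With the numbers as a replicate block the shares were 23.4%, 8.46%, 19.6%, 11.8% and 0.155%. Signs changed with centring for Pgk1 (0.0112), Apoa2 (0.00635), Apoa1 (0.0171) and Apoc1 (0.0215), and with the median of probe sets for Rps9 (-0.0645), F10 (-0.263) and Clip1 (1.05). Over named genes and settings, 2581 outcomes kept direction and side of the threshold, 305 fell below it and 26 passed it. The cause of these changes was not tested, and 4 mice a group and the low end of the array's scale limit precision.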

Other observations

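Several lists outside the comparisons held single calls. Nr1i2, the xenobiotic receptor PXR, rose by 0.65 ± 0.15 (adjusted p = 0.0027), while the cytochromes Cyp2c55 (-0.99) and Cyp3a11 (-0.26), which PXR can induce, were called lower as deposited only. Fth1, the heavy chain of ferritin, rose by 0.20 ± 0.05. Srebf1, the regulator of fatty acid synthesis, had a difference of -0.98 ± 0.29 that was not called after centring (adjusted p = 0.06).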
